A study of Mus musculus with 12 samples.

Results

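The replication-dependent histone genes were taken as the genes in the table whose mouse symbol begins with H2ac, H2bc, H3c or H4c followed by a number, together with H1f1 to H1f5. They numbered 66 of 21899 genes: 5 linker H1, 18 H2A, 18 H2B, 12 H3 and 13 H4 genes. RNA came from C57BL/6 mouse BMDMs, monocytes cultured from the marrow of tibias and femurs, grown with M-CSF at 50 ng/ml and RANKL at 100 ng/ml, which turn these precursors toward osteoclasts. The 4 groups of 3 libraries each were cells given these cytokines and dBRD9, a PROTAC that has the BRD9 protein degraded; the cytokines and JQ1, a bromodomain inhibitor; the cytokines and both dexamethasone (DEX) and iBRD9, a BRD9 bromodomain inhibitor; and the cytokines alone (MR). The study asked what BRD9, a subunit of a BAF chromatin remodeling complex, does while osteoclasts form. The methods of the study give C57BL/6J mice of 4 to 6 weeks for its cell cultures and the labels' protocol names a vehicle, but the labels of the MR samples list only the cytokines. The labels do not give the time of harvest or say whether the 3 libraries of a group came from separate cultures, and these 4 groups include none with DEX alone or iBRD9 alone. P-values therefore measure the spread between these libraries, which may be technical.

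Replication-dependent histones are the bulk building material of chromatin. H2A, H2B, H3 and H4 form the nucleosome core, H1 binds where DNA enters and leaves it, and cells make most of these proteins in S phase, when newly copied DNA has to be packaged. Their mRNAs are unusual in that most end in a short stem-loop rather than a poly(A) tail: the stem-loop binding protein SLBP and the U7 small nuclear ribonucleoprotein direct a cut just behind the stem-loop, and the mRNAs are degraded when DNA synthesis stops.

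The stem-loop was the clearest sequence feature that the symbol rule did not use. In GRCm39 it followed the stop codon in 61 of 66 genes, at 22 to 59 bases (median 32), as 16 bases that form 6 pairs around a 4-base loop. It is shown for the genes on which the results turn, with the 16 bases in capitals and 5 bases on each side.
H1f2 (chr13:23923490-23923515, plus strand): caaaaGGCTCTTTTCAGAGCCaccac
H2bc4 (chr13:23868625-23868650, plus strand): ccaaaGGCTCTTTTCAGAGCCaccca
H2bc8 (chr13:23756012-23756037, plus strand): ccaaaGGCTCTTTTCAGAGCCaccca
H3c4 (chr13:23760413-23760438, plus strand): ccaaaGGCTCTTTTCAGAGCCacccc
H4c17 (chr13:21996294-21996319, plus strand): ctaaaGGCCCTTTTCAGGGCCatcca
H4c9 (chr13:22225131-22225156, minus strand): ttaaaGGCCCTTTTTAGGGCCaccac
The first 4 carry the letters found in 38 of the 61 genes, whereas H4c17 has a form found in 8 genes and H4c9 one found in 2. Among the genes with no such letters in the 200 bases after the stop was H2bc21, which encodes H2B.E, a variant studied in olfactory neurons. The other 4 were H2ac22, H2bc22, H2bc23 and H2bc24.

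The annotated RNAs (GENCODE vM39) often ran on beyond the stem-loop. Of the 21 genes with enough counts for testing, 13 extended more than 100 bases past it and 9 had an annotated end with a poly(A) signal (AATAAA or ATTAAA) 10 to 40 bases before it. Of the 45 genes not tested, 11 and 8 did so. H1f2, the most abundant member, had its annotated end 880 bases after the stop codon with AATAAA 855 bases after it. The farthest annotated end of H2bc4 lay 9568 bases after the stop, and the exons of all its annotated RNAs together covered 3088 bases. The FPKM of the deposited table correspond to a gene model of 1156 bases for it. By contrast, H4c12 was annotated for its coding sequence alone, so that reads beyond its stop codon were not assigned to it. The sources do not say whether libraries were made from poly(A) RNA, and of 20 listed RNAs without a poly(A) tail 0 were in the table, in which 21484 of 21899 genes are protein-coding. How far the levels below reflect RNAs with a poly(A) tail was not tested.

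**Figure D1:**
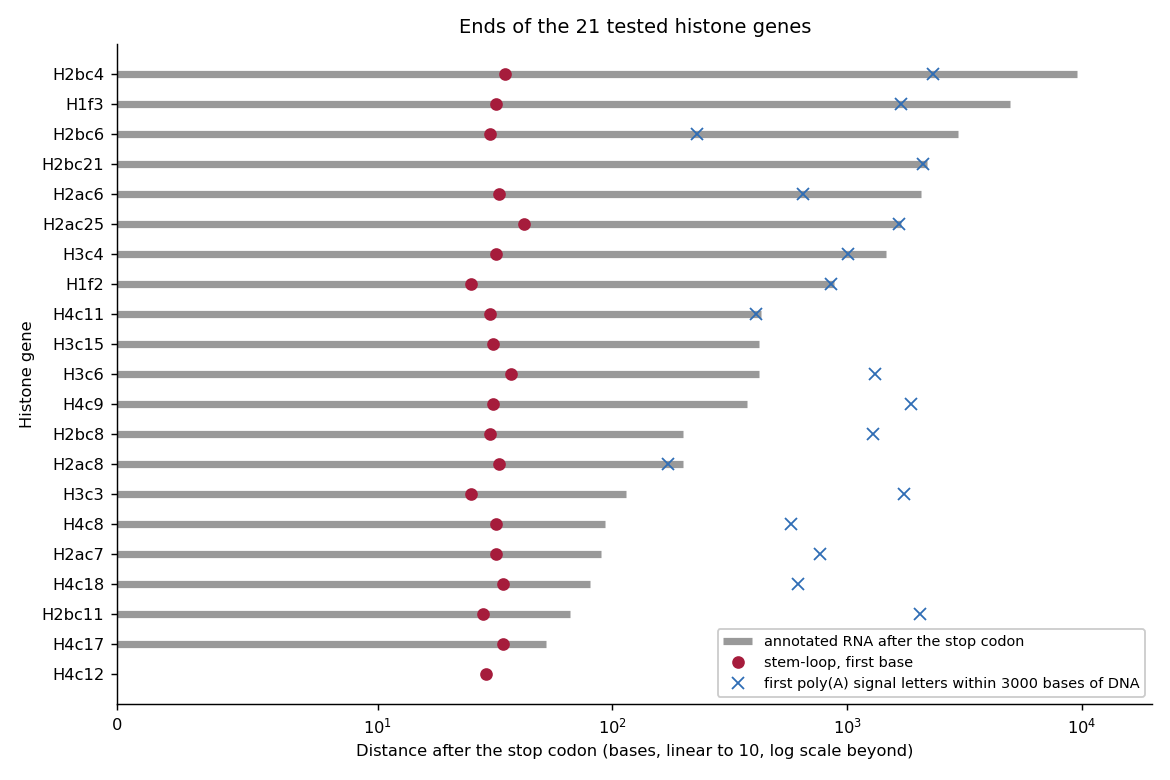
Distance after the stop codon (bases, linear to 10 and logarithmic beyond) for the 21 tested genes. Red points mark the stem-loop, blue crosses the first AATAAA and gray bars the end of the annotated RNA. ATTAAA is not drawn, so the poly(A) signals of H4c8 and H4c9 at 62 and 356 bases are not shown. The stem-loop lies close to the stop codon in 20 of 21 genes, while the annotated ends reach 9568 bases in H2bc4 and 880 in H1f2.

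Members also resembled each other in their coding parts. The 13 H4 genes held 12 distinct coding sequences and 1 protein, the 12 H3 genes 11 coding sequences and 2 proteins, and the 18 H2A and 18 H2B genes 9 and 12 proteins, whereas each of the 5 H1 genes encoded its own. Exact stretches of 100 bases were shared with another member by 56 of 66 genes, and covered at least 50% of the windows in 24 of them. H1f2 shared 5.07% of its windows, H2bc4 9.24% and H2bc21 0%, but H4c17 shared 88.1% and H4c18 80.7%. Reads of these H4 genes may therefore be split between copies or left out of the counts.

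Promoters differed by class. RefSeq promoters (GRCm38.p6, 250 bases before to 50 after the start) were available for 57 members, 18 of them tested. On either strand, TATAAA occurred in 59.6% of these 57 against 13.6% of all 32851 promoters, and CCAAT in 86.0% against 37.4%. CCAAT was in every H1, H2A, H2B and H3 promoter but in 27.3% of the 11 H4 promoters, of which 90.9% held GGTCCG, the core of the H4 site bound by HINFP, against 8.25% of all promoters. The octamer ATTTGCAT, the motif of POU2F1, was in 42.9% of H2B and 35.3% of H2A promoters against 1.74% of all. The 150 bases before the start show how the classes differ, with matches of these 4 motifs in capitals.
H1f2 (chr13:23738657-23738806, plus strand): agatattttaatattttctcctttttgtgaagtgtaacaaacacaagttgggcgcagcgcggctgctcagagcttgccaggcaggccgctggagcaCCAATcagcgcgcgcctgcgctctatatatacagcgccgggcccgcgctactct
H2bc8 (chr13:23571250-23571399, plus strand): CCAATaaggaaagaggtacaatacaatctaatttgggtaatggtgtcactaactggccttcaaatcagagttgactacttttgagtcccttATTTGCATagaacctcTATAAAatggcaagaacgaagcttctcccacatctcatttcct
H3c4 (chr13:23575613-23575762, plus strand): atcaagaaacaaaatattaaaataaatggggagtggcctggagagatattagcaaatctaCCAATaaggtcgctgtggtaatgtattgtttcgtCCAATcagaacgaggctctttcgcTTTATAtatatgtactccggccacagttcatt
H4c9 (chr13:22041363-22041512, minus strand): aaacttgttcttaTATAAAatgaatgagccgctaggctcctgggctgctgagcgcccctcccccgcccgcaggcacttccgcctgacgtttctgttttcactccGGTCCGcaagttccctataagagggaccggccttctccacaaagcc
H4c17 (chr13:21811596-21811745, plus strand): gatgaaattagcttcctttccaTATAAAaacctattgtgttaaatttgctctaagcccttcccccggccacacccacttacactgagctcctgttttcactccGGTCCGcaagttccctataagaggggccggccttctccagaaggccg
No overlap between the motifs was seen in these 5 windows. H2bc8 and H2ac8 are divergent neighbours whose windows overlap, so both hold the same octamer. The H4c9 and H4c17 windows share the block around GGTCCG, with TATAAA far upstream in both. H3c4 has TATAAA on the other strand, written TTTATA, and H1f2 shows CCAAT but no TATAAA in this window. A match of letters is a description and not a measured binding site.

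Few histone genes were well covered. Of the 66, 10 had no count in any library and 21 had fewer than 10 counts over all 12. Libraries held 14875951 to 18067758 counts each, of which the members took 0.0434 to 0.0460% in JQ1 libraries, against 0.00862 to 0.00930% in dBRD9, 0.00802 to 0.00868% in DEX and iBRD9 and 0.00737 to 0.00815% in MR libraries. H1f2 alone took 49.9 to 58.6% of the member counts in each library and H2bc4 21.6 to 26.7%. Members with at least 10 counts numbered 22 to 24 in JQ1 libraries, against 9 in each dBRD9 library, 4 to 7 in DEX and iBRD9 libraries and 7 or 8 in MR libraries.

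The libraries themselves fell apart along JQ1. The first principal component took 73.2% of the variance and put the JQ1 libraries at 79.8 to 80.6 and the other 9 at -30.7 to -24.7. The second took 6.33% and divided the MR libraries. MR library 3 lay at 15.51, with the dBRD9 libraries at 13.48 to 22.53. MR libraries 1 and 2 lay at -14.05 and -10.4, near the DEX and iBRD9 libraries at -16.24 to -12.14. The JQ1 libraries lay between, at -3.2 to 1.47. A second division was in albumin, a liver gene, which had 738 to 1031 counts in dBRD9 and JQ1 libraries and 801 in MR library 3, but 0 to 2 in the DEX and iBRD9 libraries and in MR libraries 1 and 2. The 12 listed monocyte and macrophage markers were detected and summed to 36939 to 42273 CPM (counts scaled by TMM to a common library size) in JQ1 libraries, against 20964 to 21354 CPM in MR libraries, with 5 of 12 higher and 6 lower in JQ1. In dBRD9 libraries they summed to 20167 to 21811 CPM and in DEX and iBRD9 libraries to 18743 to 20466 CPM.

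JQ1 was accompanied by higher histone mRNA in each class. Summed over the 66 genes, which needs no filter, the level was 486, 477 and 514 CPM in the JQ1 libraries, against 79.2, 74.1 and 71.6 CPM in the MR libraries, a ratio of means of 6.57. The JQ1 libraries lay far above the other 9 and were close to each other. The ratio to MR was 6.95 for H1, 3.76 for H2A, 5.37 for H2B, 12.1 for H3 and 11.9 for H4. H4 genes summed to 35.5 ± 4.03 CPM in JQ1 and 2.98 ± 0.852 CPM in MR cells (SD, n = 3 each), and H3 genes to 12.9 ± 0.264 CPM in JQ1 and 1.07 ± 0.382 CPM in MR cells. Without the pair H1f2 and H2bc4 the ratio was 5.34. In bulk RNA, more cells with histone mRNA and more histone mRNA per cell cannot be told apart.

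**Figure D2:**
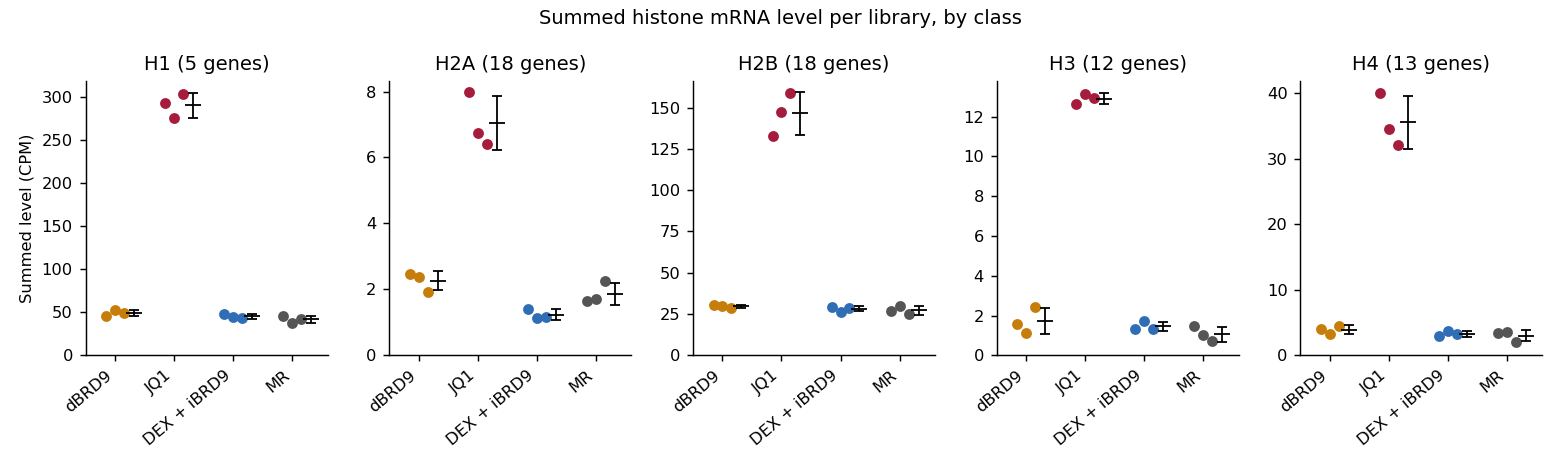
Summed level (CPM, linear axes from 0) of the members of each histone class in each library (points), with the mean and SD of the 3 libraries of a group beside them. In each class the 3 JQ1 libraries lie above the other 9 libraries.

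Genes were compared by edgeR's quasi-likelihood test over the 11670 genes that passed a filter on low counts, with p-values adjusted over these genes by the method of Benjamini and Hochberg. Of the members 21 passed, and of these 13 reached the filter in all 3 JQ1 libraries but in no other group as a whole. Of the 13, H1f3 and H2bc6 also reached it in 2 MR libraries each and in 2 and 1 dBRD9 libraries. They did not pass through JQ1 alone. The others were H4c8, H4c11, H4c12, H4c17, H4c18, H3c4, H3c6, H3c15, H2ac6, H2ac7 and H2ac8. These passed through JQ1, so they had to be higher there and their p-values against MR do not stand as support. Nor does that of H2bc11, which reached the filter in 2 JQ1 libraries and 1 dBRD9 library but in 0 MR libraries. With JQ1, 20 of 21 rose and 0 fell (adjusted p under 0.05), against 30.0% of all tested genes that rose and 31.6% that fell, and 19 of them rose at least 2-fold, against 4.61% of all tested genes. The median log2 fold change of the 21 was 3.28, against -0.01 over all tested genes. Because of how these 21 entered the test, the counts and the median describe them and the 5 genes at the filter in all 3 MR libraries are given first.

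H1f2 (chr13:23922791-23924350, plus strand) encodes the linker histone H1.2. Its levels were 285, 269 and 295 CPM in JQ1 libraries, against 45.1, 37.0 and 40.6 CPM in MR libraries. The lowest JQ1 library lay far above the highest MR library, and the log2 fold change was 2.79 ± 0.08 (SE, edgeR adjusted p = 5.14e-23). In FPKM, the authors' value scaled for gene length and depth, H1f2 averaged 164 ± 6.53 in JQ1 and 27.0 ± 2.63 in MR cells (SD, n = 3 each).

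H2bc4 (chr13:23867631-23878163, plus strand) encodes an H2B protein. It had 108, 123 and 135 CPM in JQ1 libraries, against 17.1, 19.7 and 16.4 CPM in MR libraries, a log2 fold change of 2.78 ± 0.10 (SE, edgeR adjusted p = 1.97e-20). The annotation overlaps those of Gm55646 on the same strand and H2ac6 on the other, and the counting is not stated to use strand. H2ac6 had 0.886, 0.803 and 1.33 CPM in the same JQ1 libraries, and the part of these overlaps in the H2bc4 counts was not tested. H4c9 (chr13:22224806-22225532, minus strand), the H4 gene with the most counts, had 14.3, 16 and 14.2 CPM in JQ1 libraries, against 2.00, 2.47 and 1.10 CPM in MR libraries (log2 fold change 2.98 ± 0.23, edgeR adjusted p = 4.77e-12). In all 3 genes the JQ1 libraries were apart from those of MR.

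The rise was smaller in the other 2 of the 5. H2bc21, the H2B.E gene on chromosome 3, had 14.6, 14.8 and 13.7 CPM in JQ1 libraries, against 7.28, 8.90 and 7.09 CPM in MR libraries, a log2 fold change of 0.88 ± 0.16 (SE, edgeR adjusted p = 2.72e-05). H2ac25 on chromosome 11 had 1.92, 1.79 and 2.09 CPM in JQ1 libraries, against 0.705, 0.804 and 1.29 CPM in MR libraries, a log2 fold change of 1.06 ± 0.42 (edgeR adjusted p = 0.0311). It overlaps Trim17 on the same strand and its highest MR library lay at 1.29 CPM, below the lowest JQ1 library. The difference in size between these 2 genes and H1f2 was not tested.

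**Figure D3:**
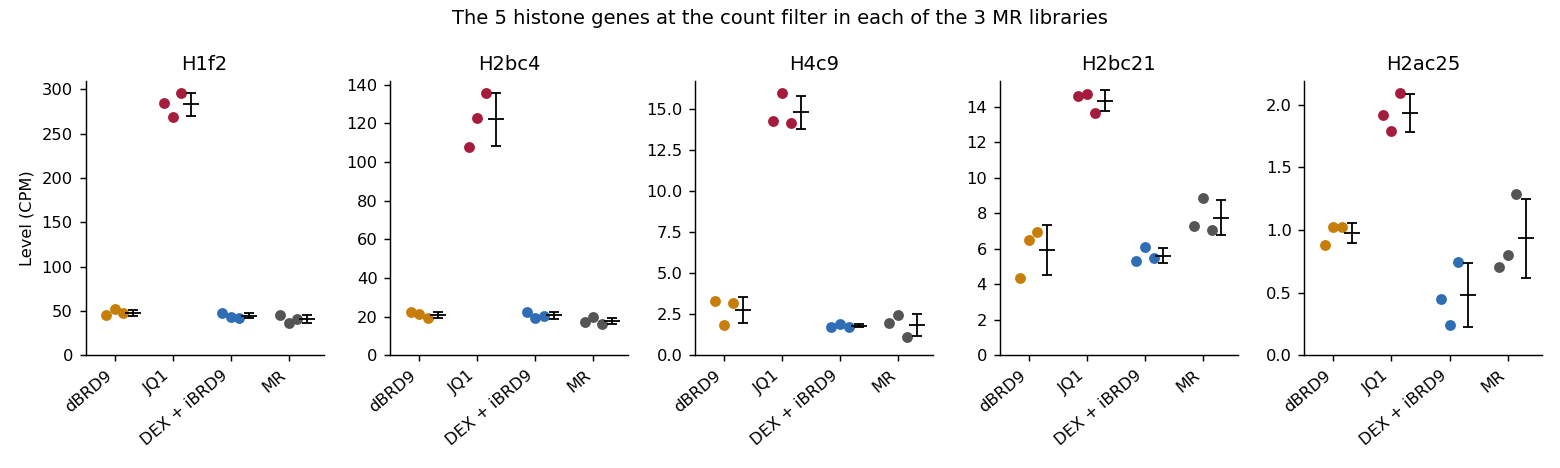
Level (CPM, linear axes from 0) in each library (points) of the 5 genes that reached the count filter in each MR library, with the mean and SD of each group of 3. The JQ1 libraries stand above the rest for each gene, by less for H2bc21 and H2ac25 than for H1f2, H2bc4 and H4c9.

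Several core histone genes had few counts in MR cells. H4c17, H4c12, H4c8 and H4c11 passed the filter through JQ1, so their p-values here do not stand as support. H4c17, an H4 gene that shares its protein with H4c9, had 12.9, 6.67 and 7.61 CPM in JQ1 libraries, against 0.470, 0.590 and 0.129 CPM in MR libraries (log2 fold change 4.45 ± 0.46, edgeR adjusted p = 3.88e-09). H4c12 had 5.02, 4.01 and 3.07 CPM in JQ1 libraries, against 0.176, 0.161 and 0.193 CPM in MR libraries (4.46 ± 0.60, edgeR adjusted p = 2.01e-07). The lowest JQ1 library was many times the highest MR library for both genes. Per length these small genes came close to H4c9 in JQ1 cells. In FPKM, H4c17 averaged 20.4 ± 7.70 and H4c9 18.5 ± 1.37 in JQ1 cells, whose spreads overlap, and H4c12 averaged 11.7 ± 2.92 (SD, n = 3). In MR cells the means were 1.02 ± 0.614 for H4c17, 2.63 ± 0.991 for H4c9 and 0.583 ± 0.0528 for H4c12 (SD, n = 3). H1f2 and H2bc4 kept the highest FPKM of these 5 genes in both groups, H2bc4 at 95.4 ± 10.1 in JQ1 and 15.8 ± 1.61 in MR cells. H4c8 and H4c11 rose by 4.90 ± 0.71 and 4.13 ± 0.84 on the log2 scale (edgeR adjusted p = 1.13e-06 and 9.83e-05).

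H4c18 is the near copy of H4c17 and had 24, 17 and 14 counts in JQ1 libraries but 0 in each MR library. Set against a floor of 3 counts over the MR group, its level was at least 21.3-fold higher in JQ1 cells. H2ac7, an H2A gene, had 36, 25 and 20 counts in JQ1 libraries and 1 count in the MR group, in library 3. Its ratio was 94.1 (95% interval 16.4 to 3763, counting error only), so the size of its change is poorly known. For H3c6 the 45 JQ1 counts against 3 MR counts gave a ratio of 17.4 (5.60 to 87.7), and for H2bc11 the 28 against 3 gave 10.8 (3.35 to 55.7). H4c18, H2ac7, H3c6 and H2bc11 reached the count filter in 0 MR libraries, so these ratios describe them only.

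Among H3 genes, which all encode one of only 2 proteins, H3c4 led with 6.94, 5.0 and 6.70 CPM in JQ1 libraries, against 0.176, 0.429 and 0.258 CPM in MR libraries (log2 fold change 4.37 ± 0.44, edgeR adjusted p = 7.93e-10). H3c15 on chromosome 3 had 2.81, 5.37 and 2.37 CPM in JQ1 libraries, against 0.294, 0.214 and 0 CPM in MR libraries (4.28 ± 0.63, edgeR adjusted p = 1.00e-06). As both genes passed the filter through JQ1, their p-values here do not stand as support. JQ1 library 2 was the highest of the JQ1 libraries for H3c15 and the lowest for H3c4. H3c3 was the 1 tested member that did not pass, with 1, 1 and 7 counts in JQ1 libraries against 1, 2 and 1 in MR libraries (1.31 ± 1.04, edgeR adjusted p = 0.276).

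Of the other H2A and H2B genes, H2bc8 had 5.91, 5.37 and 4.26 CPM in JQ1 libraries, against 1.06, 0.322 and 0.193 CPM in MR libraries (log2 fold change 3.28 ± 0.43, edgeR adjusted p = 1.13e-07). Its divergent neighbour H2ac8 had 1.77, 1.91 and 1.12 CPM in JQ1 libraries, against 0.528, 0.375 and 0.709 CPM in MR libraries (1.58 ± 0.52, edgeR adjusted p = 0.00954). Both genes of the pair were higher in JQ1 cells, and their difference in size was not tested. H2ac6 and H2bc6 were higher by 2.19 ± 0.65 and 1.45 ± 0.51 (edgeR adjusted p = 0.00443 and 0.0146). As H2ac8 and H2ac6 passed the filter through JQ1, their p-values here do not stand as support. H2bc6 overlaps H1f4 on the same strand and H4c4 on the other.

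The linker histones other than H1f2 were scarce. H1f3 had 4.95, 5.0 and 6.56 CPM in JQ1 libraries, against 0.470, 0.697 and 0.709 CPM in MR libraries (log2 fold change 3.12 ± 0.40, edgeR adjusted p = 7.02e-08). H1f1, H1f4 and H1f5 did not pass the filter. H1f1 had 0, 15 and 17 counts in JQ1 libraries against 0, 1 and 0 in MR libraries, H1f5 28, 2 and 7 against 0, 2 and 6, and H1f4 7, 0 and 2 against 1, 0 and 2. The JQ1 libraries disagreed on these 3 genes, with JQ1 library 1 at 0 for H1f1 and highest for H1f5.

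The 45 genes not tested are also accounted for. Together they had 410 counts in the JQ1 group and 95 in the MR group, at 9.33 ± 0.428 CPM in JQ1 and 1.87 ± 0.678 CPM in MR cells (SD, n = 3 each), a ratio of 4.98. Of the 56 members with any count, 50 had a higher mean in JQ1 than in MR cells, 3 a lower one and 3 the same, whereas 45.5% of the 15923 genes with any count had a higher one. In 29 of the 56 the JQ1 libraries lay above the MR libraries with no overlap and in 0 below, against 23.4% of all such genes above and 25.5% below.

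**Figure D4:**
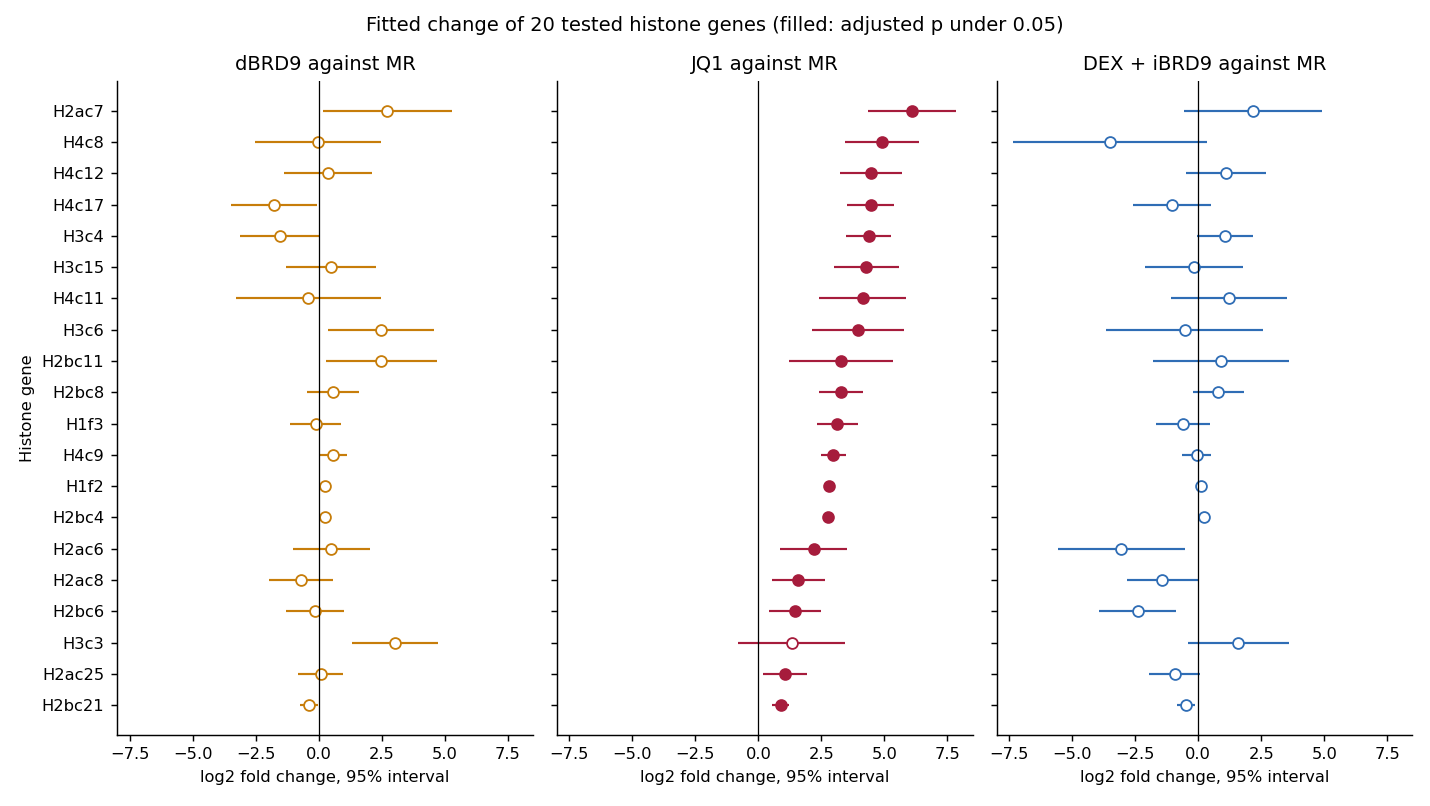
Fitted log2 fold change with its 95% interval for 20 tested members in the comparisons of dBRD9, JQ1, and DEX and iBRD9 with MR, ordered by the JQ1 change; filled points passed an adjusted p of 0.05. H4c18, with 0 counts in MR cells, is left out. With JQ1 19 of the 20 points are filled, and in the other 2 comparisons 0 are.

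The members lie on 4 chromosomes, 53 of them in 2 blocks of chromosome 13. In the block at chr13:23715220-24118834, with 30 members and both H1f2 and H2bc4, the summed level was 437 ± 23.9 CPM in JQ1 and 62.8 ± 3.92 CPM in MR cells (SD, n = 3 each), a ratio of 6.97. In the block at chr13:21899933-22227846, with 23 members, it was 34.8 ± 5.64 CPM in JQ1 and 3.08 ± 0.710 CPM in MR cells, a ratio of 11.3. The sum of the 10 members on chromosome 3 was 18.2 ± 2.01 CPM in JQ1 and 8.10 ± 0.979 CPM in MR cells (ratio 2.24), with H2bc21 making up most of it. The 2 on chromosome 11 had a ratio of 2.05, and the 1 on chromosome 6, H4c16, reached at most 0.432 CPM in any library.

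dBRD9 was not accompanied by a comparable change. The 66 genes summed to 83.6, 89.5 and 86.9 CPM in dBRD9 libraries, against 79.2, 74.1 and 71.6 CPM in MR libraries. The ratio was 1.16, with no overlap between the groups. Without the pair H1f2 and H2bc4 the ratio was 1.06 and the libraries overlapped. They then summed to 16.2 to 19.4 CPM in dBRD9 and 14.6 to 17.4 CPM in MR libraries. Of the 21 tested members 0 rose and 0 fell (edgeR adjusted p under 0.05), against 0.514% and 1.12% of all tested genes. At an unadjusted p under 0.05 there were 9 in either direction, against 16.6% of all tested genes, and DESeq2 also called 0. The threshold of the study's methods, an unadjusted p under 0.05 with a fold of 1.2, called 5 higher and 2 lower, against 3.26% and 3.57% of all tested genes. The 9 and the 5 higher include H3c3, which passed the filter through dBRD9. They also include H2bc11, which reached it in 2 JQ1 libraries, 1 dBRD9 library and 0 MR libraries. The shares of all genes are therefore no fair background for these counts. The median log2 fold change was 0.24, against 0.01 over all genes. Of the 56 members with any count, 5 lay above the MR libraries without overlap and 2 below, against 9.73% of all such genes above and 9.93% below. By class the ratio was 1.18 for H1, 1.21 for H2A, 1.09 for H2B, 1.61 for H3 and 1.31 for H4.

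For single genes the intervals show what changes remain possible. H1f2 had 44.9, 51.7 and 48.2 CPM in dBRD9 libraries, against 45.1, 37.0 and 40.6 CPM in MR libraries (log2 fold change 0.24, 95% interval 0.08 to 0.40, edgeR adjusted p = 0.110). H2bc4 had 22.1, 21.6 and 19.3 CPM in dBRD9 libraries, against 17.1, 19.7 and 16.4 CPM in MR libraries (0.24, 0.03 to 0.45, edgeR adjusted p = 0.233). The libraries overlapped for both genes. H2bc21 lay the other way, at 4.35, 6.53 and 6.97 CPM in dBRD9 libraries against 7.28, 8.90 and 7.09 CPM in MR libraries (-0.38, -0.74 to -0.03, edgeR adjusted p = 0.252).

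H3c3 came closest to a call, with 11, 11 and 14 counts in dBRD9 libraries against 1, 2 and 1 in MR libraries (log2 fold change 3.02 ± 0.83, edgeR adjusted p = 0.0573). H3c3 reached the count filter in the 3 dBRD9 libraries and in 0 libraries of the other groups, so it had to be higher there and the p-values do not stand as support. It was the 1 member called in a fit of the 6 libraries compared (edgeR adjusted p = 0.0187) or of the 9 without JQ1 (edgeR adjusted p = 0.0154). It overlaps H2bc3 on the other strand, which had 5 counts in the dBRD9 group and 3 in the MR group.

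JQ1 and dBRD9 were also compared with each other, in the same fit of 12 libraries. Of the 21 tested members 18 were higher in JQ1 and 1 lower, against 30.4% and 32.8% of all tested genes. As 13 of the 21 reached the filter in all 3 libraries of JQ1 and of no other group, these counts describe the members only. The shares of all genes are no fair background for them. H1f2 was higher by 2.55 ± 0.07 and H2bc4 by 2.54 ± 0.10 on the log2 scale (edgeR adjusted p = 3.15e-22 and 1.32e-19). H2bc11 (0.80 ± 0.73, edgeR adjusted p = 0.347) and H3c6 (1.46 ± 0.65, edgeR adjusted p = 0.0505) did not pass. H3c3 was the lower one (-1.71 ± 0.72, edgeR adjusted p = 0.0396). As it passed the filter through the dBRD9 libraries alone, that direction was built in, and the call was lost in DESeq2 and on leaving out any dBRD9 library or JQ1 library 1 or 2.

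DEX with iBRD9 left summed histone mRNA near the MR level. The sum was 83.4, 77.3 and 77.6 CPM in DEX and iBRD9 libraries, against 79.2, 74.1 and 71.6 CPM in MR libraries, a ratio of 1.06 with overlapping libraries. Without the pair H1f2 and H2bc4 the ratio was 0.871. The sums were then 13.46, 14.67 and 14.62 CPM in DEX and iBRD9 libraries, against 17.03, 17.42 and 14.63 CPM in MR libraries. Of the 21 tested members 0 rose and 0 fell by edgeR at an adjusted p under 0.05, against 0.591% and 1.36% of all tested genes, with 0 called by DESeq2. At an unadjusted p under 0.05 there were 5 in either direction, against 15.6% of all tested genes, and the threshold of the study's methods called 0 higher and 4 lower, against 2.38% and 4.46%. H1f2 had 47.6, 43.6 and 42.5 CPM in DEX and iBRD9 libraries, against 45.1, 37.0 and 40.6 CPM in MR libraries (log2 fold change 0.13, 95% interval -0.03 to 0.28). H2bc21 lay below MR without overlap, at 5.32, 6.08 and 5.47 CPM against 7.28, 8.90 and 7.09 CPM (-0.47, -0.82 to -0.11, edgeR adjusted p = 0.167). H2bc6 came closest, at 0.113, 0.0596 and 0.173 CPM in DEX and iBRD9 libraries against 0.881, 0.697 and 0.322 CPM in MR libraries (-2.39 ± 0.75, edgeR adjusted p = 0.0947). Of the 56 members with any count, 3 lay above the MR libraries without overlap and 4 below, against 9.63% of all such genes above and 10.2% below. The H2A class, at 1.23 ± 0.157 CPM in DEX and iBRD9 and 1.87 ± 0.335 CPM in MR cells, was the one class with a ratio below 1 (0.659). These 3 comparisons with MR share the MR libraries.

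Replacement histones are made also outside S phase. Of 9 tested replacement core variants 7 rose with JQ1 and 1 fell, against 30.0% and 31.6% of all tested genes. Their median log2 fold change was 0.49. H3f3b, which encodes H3.3, averaged 1358 ± 56.5 CPM in JQ1 and 655 ± 13.6 CPM in MR cells (SD, n = 3 each; 1.05 ± 0.05, edgeR adjusted p = 2.02e-17). H2aj rose by 1.02 ± 0.10, and H2az1 and H2ax by 0.36 ± 0.08 and 0.49 ± 0.08. The call of H2az1 was lost when libraries were scaled by total counts (0.17, adjusted p = 0.059). Cenpa, the centromeric H3, was the one that fell (-0.58 ± 0.10). H1f0, a linker histone linked to differentiation, averaged 45.7 ± 5.42 CPM in JQ1 and 23.2 ± 0.653 CPM in MR cells (0.98 ± 0.10) and was the 1 of 2 tested linker variants that rose. The other, H1f10, averaged 0.301 ± 0.228 CPM in JQ1 and 0.810 ± 0.500 CPM in MR cells (-1.45 ± 0.66, edgeR adjusted p = 0.0569).

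The machinery that makes and removes histone mRNA did not move as the histone genes did. Of 15 genes of histone pre-mRNA processing 2 rose with JQ1, 5 fell and 8 were not called (median -0.12). Over all tested genes 30.0% rose and 31.6% fell, and whether these lists differ from that background was not tested. Slbp averaged 62.6 ± 5.05 CPM in JQ1 and 47.7 ± 2.16 CPM in MR cells (0.39 ± 0.08, edgeR adjusted p = 0.000147), whereas Lsm11 of the U7 particle was lower (-0.46 ± 0.18, edgeR adjusted p = 0.0238, lost on leaving out MR library 2 or JQ1 library 2 or 3). Casp8ap2, which encodes FLASH, and Lsm10 did not pass (-0.12 ± 0.08 and 0.11 ± 0.13). Of 13 genes of histone gene transcription 2 rose and 6 fell (median -0.20), among them Npat, the coactivator of histone genes (-0.20 ± 0.09, edgeR adjusted p = 0.0428, lost on leaving out any library but JQ1 library 1), and Hinfp, whose product binds H4 promoters (-0.30 ± 0.10, edgeR adjusted p = 0.0106, lost without JQ1 library 3 or MR library 3). Of 13 genes of histone mRNA decay 3 rose and 7 fell (median -0.43), with the uridylyl transferase genes Tut7 (0.65 ± 0.07) and Tut4 (0.55 ± 0.08) higher and Dcp2 (-0.84 ± 0.09) and Xrn1 (-0.43 ± 0.09) lower.

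Genes of DNA synthesis, which is normally coupled to histone mRNA, moved the opposite way. Of 51 DNA replication genes 1 rose with JQ1, 39 fell and 11 were not called, with a median of -0.49. Over all tested genes 30.0% rose and 31.6% fell. Pcna, the sliding clamp of the polymerases, averaged 384 ± 25.1 CPM in JQ1 and 501 ± 12.7 CPM in MR cells (-0.39 ± 0.05, edgeR adjusted p = 2.97e-07). Mcm5, part of the replicative helicase, averaged 141 ± 11.4 CPM in JQ1 and 215 ± 4.0 CPM in MR cells (-0.61 ± 0.06, edgeR adjusted p = 7.35e-10), while Rrm2 averaged 120 ± 5.36 CPM in JQ1 and 127 ± 2.82 CPM in MR cells (-0.08 ± 0.06, edgeR adjusted p = 0.252). Of 19 histone chaperone genes 1 rose and 8 fell (median -0.15), with Chaf1a of the CAF-1 complex (-0.61 ± 0.08) and the H3.3 chaperone gene Daxx (-1.79 ± 0.08) lower and Nasp at 0.04 ± 0.08.

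With dBRD9, 1 of the 51 DNA replication genes rose (Rrm2), 1 of 19 chaperones (Chaf1b) and 1 of 13 decay genes (Lsm4), and 0 fell in the processing, transcription, decay, chaperone and replication lists. The calls of Rrm2 and Chaf1b were each lost on leaving out any 1 of the 6 libraries. With DEX and iBRD9, 1 replication gene rose, 2 of 9 replacement variants fell (H3f3a and H3f3b) and 0 of the processing, transcription, decay and chaperone genes were called. The fall of H3f3a was lost on leaving out any 1 of the 6 libraries, and that of H3f3b without DEX and iBRD9 library 2 or 3 or MR library 3.

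**Figure D5:**
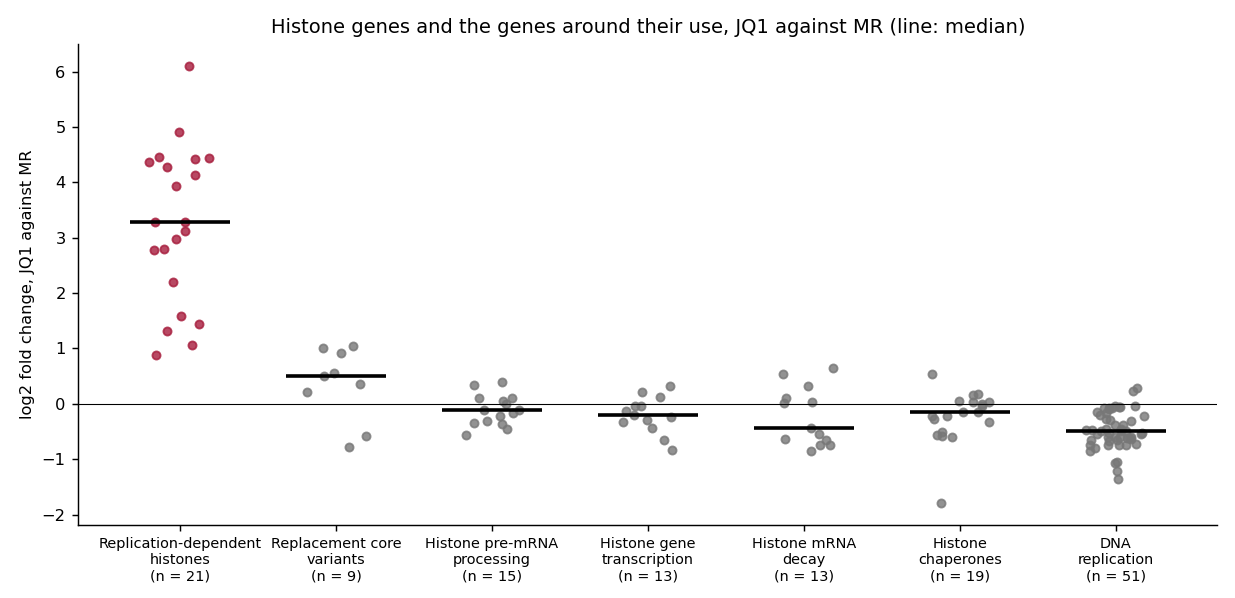
Log2 fold change of JQ1 against MR for the tested genes of each list (points) and the list median (line); H4c18 is drawn at its lower bound, 4.41. The 21 histone genes lie at 0.88 and above, whereas the DNA replication genes lie mostly below 0, with a median of -0.49.

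Markers of other cells moved with JQ1 as well as those of monocytes and macrophages, and their part in the histone values was not tested. Of 9 tested neutrophil markers (12 listed) 9 fell with JQ1, and the 12 summed to 37.7 to 52.6 CPM in JQ1 libraries, against 218 to 235 CPM in MR libraries, with Ly6g at 0 in JQ1 cells and Camp at 0 as well. In JQ1 cells 7 of 8 tested osteoclast markers were lower and 1 higher, against 31.6% and 30.0% of all tested genes. Lower too were 5 of 6 stromal, 4 of 6 endothelial and megakaryocyte, 3 of 5 dendritic cell, 2 of 2 mast cell and basophil, 1 of 1 B cell and 1 of 1 T and NK cell markers tested, with 0 higher in any of these lists. Erythroid markers summed to at most 0.735 CPM in any library, and 0 of 10 were tested. Of 14 tested hepatocyte markers 3 were higher in JQ1 and 0 lower, and the 15 listed summed to 175 to 229 CPM in JQ1 libraries, against 45.6 to 155 CPM in MR libraries, the highest being MR library 3. With a term for the albumin division, H1f2 was higher by 2.80 and H2bc4 by 2.90 on the log2 scale in JQ1 than in MR cells, and 17 of the 21 members were called.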

How the data were processed

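BMDM RNA of 12 libraries was analysed. The submitters' processing notes name cutadapt, HISAT2, HTSeq and build GRCm39. The deposited table holds a count per gene and library, which the authors made with HTSeq, and FPKM, which the authors computed from those counts. The strand setting, the annotation release and whether poly(A) RNA was selected are not given in the sources used here. Gene symbols came from GENCODE vM39, which matched 21700 of 21899 genes (the 199 others held 0 members); 69 annotated symbols met the rule, and H2ac14-ps, H2ac5-ps and H2bc26 are not analysed here.

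Counts were analysed in R 4.3.3 with edgeR 4.0.16 (filterByExpr with minimum count 10 and minimum total 15, TMM, robust quasi-likelihood test, 1 fit of 12 libraries, 8 residual degrees of freedom). DESeq2 1.42.0 served as an alternative, as did other scalings, filters, thresholds, samples in the fit, a term for libraries with at least 100 albumin counts and leaving out each library. The test was tested on simulated data. Intervals on count ratios are exact and cover counting error only. Replicate libraries differed by more than sampling noise (chi-square per degree of freedom 3.55 to 15.7). Stem-loops were searched in 200 bases after the stop codon, with 6 pairs and a 4-base loop.

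The members, gene lists and tests were chosen with earlier results of these data known. Named members were up to 8 per direction with the largest change among called members at a mean of at least 1 CPM, the most abundant of each class per kilobase, and H1f1 to H1f5. Other genes were a fixed set and up to 3 called genes per direction of a list. Members outside this rule (H2bc21, H2ac25, H4c8, H4c11, H4c18, H3c6, H3c3, H2bc11, H2ac8, H2ac6 and H2bc6) were described after their values were seen. Figures were drawn in Python 3.11.15 with matplotlib 3.10.9.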

Additional observations from a re-analysis of the deposited data

How the results depend on the processing

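The JQ1 changes of the named members that passed kept their direction and their side of the threshold in all 137 alternative values. Members were named in part for a large called change, which favours such stability. H4c12, H4c17, H3c4, H3c15 and H2ac7 also passed the filter through JQ1, so for them these values do not stand as support. The count of 20 members higher in JQ1 than MR was 8 of 8 tested under the stricter filter, where fewer genes are tested, 27 of 56 with no filter and 19 to 22 when each library was left out. Of the 8, H1f3, H3c4 and H4c17 reached the 1 CPM of the stricter filter in JQ1 libraries alone. They had to be higher there, so 8 of 8 describes the members only. The median of 3.28 was 3.09 with total counts scaling, 2.79 with no filter, 3.04 under the stricter filter, 2.94 with the albumin term and 3.19 to 3.77 leaving out each library. Total counts scaling shifted the median of all genes to -0.20. It gave log2 ratios of summed levels of 2.53 over the 66 genes, and of 2.61 (H1), 1.73 (H2A), 2.24 (H2B), 3.41 (H3) and 3.39 (H4).

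For dBRD9 against MR, the fit of 6 libraries and the fit of 9 libraries each called 1 member higher (H3c3, of 9 tested). The threshold of the study's methods (unadjusted p under 0.05 and a fold of 1.2) called 5 higher, H3c3 among them, and 2 lower. H3c3 passed the filter through dBRD9, so its calls do not stand as support. The median of 0.24 was 0.38 with no filter, 0.058 under the stricter filter and 0.22 to 0.34 leaving out each library. For DEX and iBRD9 against MR that threshold called 4 lower. The median of -0.065 was 0.27 with no filter, 0.029 under the stricter filter, 0.12 with the albumin term, 0.032 in the fit of 6 libraries and -0.45 to 0.28 leaving out each library, so its sign is not settled. For JQ1 against dBRD9, 18 members higher became 8 of 8 under the stricter filter and 17 to 20 leaving out each library. Here too H1f3, H3c4 and H4c17 passed the stricter filter through JQ1. The 1 lower became 0 with no filter, under the stricter filter and in DESeq2, and 0 to 1 leaving out each library. The median of 2.55 was 2.36 with total counts scaling, 1.78 with no filter and 2.56 to 2.76 leaving out each library. The cause of these shifts was not tested. No paired analysis was possible because replicate numbers follow accession order and pair nothing.

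Depth limits the smaller genes: 45 of 66 members could not be tested, and near-identical copies, overlapping genes and the unstated strand and poly(A) selection limit what a single gene's count stands for.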

Other observations

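Other genes inside the 2 histone blocks of chromosome 13 did not move as one. The deposited counts list 10 such genes, of which 2 were tested, chosen for their position. Prss16, which encodes a thymus-specific serine protease, averaged 11.7 ± 2.43 CPM in JQ1 and 1.98 ± 0.170 CPM in MR cells (SD, n = 3 each; log2 fold change 2.55 ± 0.23, edgeR adjusted p = 1.11e-10). Hfe, which encodes a regulator of iron uptake, averaged 17.5 ± 1.31 CPM in JQ1 and 33.4 ± 2.37 CPM in MR cells (-0.93 ± 0.10, edgeR adjusted p = 7.03e-09). These neighbours were looked up after the histone values had been seen.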
